A study of Mus musculus with 9 samples.

Results

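The EGF receptor family and its ligands were examined as 10 named genes of the 32137 genes in the count tables: the receptors Egfr, Erbb2, Erbb3 and Erbb4 and the ligands Areg, Ereg, Hbegf, Tgfa, Btc and Epgn. The rule names the genes and uses no value measured in these libraries, but the members were chosen with earlier results of these data known. The study asked how differentiated bile duct organoids respond to Rspo1 (R-spondin 1, a secreted factor that strengthens Wnt signalling), and sorted their cells by a reporter of the Wnt target gene Axin2. All organoids came from a single male mouse of mixed genetic background with the genotype Axin2CreERT2+/-; R26-LSL-tdTom+/-, in which a tamoxifen-activated Cre recombinase expressed from Axin2 switches on tdTomato. Every culture had 2 to 4 days of expansion followed by 11 days of differentiation, and all of them, untreated ones included, received 3 uM dexamethasone and 500 nM 4-OHT (the active form of tamoxifen) in the last 24 h. The 3 groups were tdTom-negative cells without Rspo1 (untreated), tdTom-negative cells of organoids given 100 ng/ml Rspo1 in those 24 h (Rspo1-negative), and tdTom-positive cells of the same kind of treated organoids (Rspo1-positive). Each group had 1 library at each of passages 5, 6 and 10, labelled replicates 1, 2 and 3, so p-values measure the spread between repeated cultures of 1 animal, not between animals. No group held tdTom-positive cells without Rspo1, and the age of the animal and the EGF content of the media are not given in the labels.

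EGF receptor signalling starts when a ligand of the EGF family binds a receptor at the cell surface and the receptor pairs with another of its family. Egfr and Erbb4 bind ligand and carry an active kinase, Erbb2 has an active kinase and no known ligand of its own, and Erbb3 binds neuregulins and has little kinase activity, so it signals through its partner. Tgfa, Areg and Epgn act mainly through Egfr, whereas Hbegf, Ereg and Btc can also engage Erbb4. The ligands are made as membrane-bound precursors that metalloproteases cut free, and the activated receptors feed the Ras-ERK and PI3-kinase routes. EGF is a standard growth factor in liver duct organoid culture.

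Stretches of 250 bases upstream of the annotated gene start are shown for Egfr and Tgfa, a receptor and its ligand that were both called lower in Rspo1-negative than in untreated cells, of which Egfr was not called under the correction for GC content and length described below, and for Areg, a ligand with no called difference. They come from RefSeq for GRCm38.p6, which held 7 of the 10 genes, and run from 5′ to 3′ on the strand of the gene: chr11:16751953-16752202 on the plus strand for Egfr, chr6:86194972-86195221 on the plus strand for Tgfa and chr5:91139349-91139598 on the plus strand for Areg. Capitals mark matches on either strand to a GC box (GGGCGG) or a cAMP response element (TGACGTCA).
Egfr: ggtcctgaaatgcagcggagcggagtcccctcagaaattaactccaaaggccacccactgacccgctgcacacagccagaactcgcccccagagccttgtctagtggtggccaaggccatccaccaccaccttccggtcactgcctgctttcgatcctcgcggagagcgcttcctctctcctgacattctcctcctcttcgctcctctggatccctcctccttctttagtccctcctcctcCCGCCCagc
Tgfa: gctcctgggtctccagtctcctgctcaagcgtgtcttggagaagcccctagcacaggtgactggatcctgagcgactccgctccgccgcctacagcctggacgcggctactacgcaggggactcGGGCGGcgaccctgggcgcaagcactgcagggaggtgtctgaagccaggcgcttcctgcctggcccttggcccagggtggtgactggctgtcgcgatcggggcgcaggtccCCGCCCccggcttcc
Areg: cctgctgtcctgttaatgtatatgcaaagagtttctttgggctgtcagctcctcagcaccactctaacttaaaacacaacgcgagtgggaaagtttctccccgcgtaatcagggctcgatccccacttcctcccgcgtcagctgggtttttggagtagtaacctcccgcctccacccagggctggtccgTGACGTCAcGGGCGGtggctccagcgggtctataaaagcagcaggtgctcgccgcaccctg
The Egfr stretch held 1 GC box, starting at base -9 from the gene start, and the Tgfa stretch held 2, at -126 and -15. Areg had a cAMP response element at -61 and a GC box at -52, which do not overlap. A GC box occurred in 32.7% and a cAMP response element in 1.55% of all 32851 upstream windows of this length. Neither a TCF/LEF motif (CTTTGAT, in 3.21% of windows) nor an AP-1 motif (TGANTCA, in 6.75%) was found on either strand in these 3 windows or in those of Erbb2, Erbb4, Btc and Epgn, where no GC box or cAMP response element was matched either. Erbb3, Ereg and Hbegf were not in the table.

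The libraries held 23423979 to 37351448 counts. Levels within a gene are given as CPM, the counts divided by the TMM-scaled library size. Axin2, which drives the reporter, was at a mean of 3.01 ± 2.56 in untreated, 88.7 ± 40.6 in Rspo1-negative and 106 ± 42.3 CPM in Rspo1-positive cells (SD, n = 3 each). The 2 Rspo1 gates did not differ detectably in it (log2 fold change 0.26, SE 0.50, adjusted p = 0.733 by the quasi-likelihood test of edgeR), although the sort separated them by the reporter. All 7 biliary markers were tested, with summed levels of 6910 to 8670, 6900 to 9010 and 5920 to 6020 CPM in untreated, Rspo1-negative and Rspo1-positive libraries. Of the biliary markers, Krt19, a keratin of duct cells, was lower (log2 fold change -1.06, edgeR adjusted p = 0.0127) and Sox9, a duct transcription factor, higher (1.31, adjusted p = 0.0412) in Rspo1-positive than in untreated cells, called in 4 and 2 of the 6 fits that left out a library. No mesenchymal or endothelial marker reached a mean of 1 CPM in the libraries, with summed levels of at most 0.95 CPM for the 5 mesenchymal and 0.339 CPM for the 4 endothelial markers in the tables, and Cdh5, which defines endothelium, had no count in any library. Of the 5 immune markers in the tables, Ptprc, which marks all leukocytes, had at most 5 counts in a library, while the macrophage genes Csf1r and Cd68 were detected, with summed immune levels of 49.8 to 68.1, 50.4 to 61.0 and 45.6 to 54.1 CPM in the 3 groups. Hepatocyte markers summed to 356 to 722, 409 to 724 and 327 to 489 CPM, and 4 of the 7 were tested. In the fit on groups alone no hepatocyte, mesenchymal or immune marker was called by edgeR, while DESeq2 called Alb, the albumin gene, in Rspo1-positive against untreated cells, where 3 hepatocyte markers had an unadjusted p under 0.05, against 1 in Rspo1-negative and untreated cells and 0 between the gates; for mesenchymal and immune markers these counts were 0. With passage as a block edgeR called 2 hepatocyte markers lower in Rspo1-positive than in untreated cells (Alb and Hnf4a), 2 lower in the Rspo1-positive than the Rspo1-negative gate (Alb and Ttr) and 1 lower in Rspo1-negative than in untreated cells (Hnf4a), and the immune marker Cd68 lower in Rspo1-positive cells than in either other group. Of all genes the block called 13.2%, 38.9% and 35.5% in these comparisons, in that order. The 12 genes of the dissociation response summed to 771 to 1320, 768 to 1100 and 944 to 2160 CPM. The proliferation list of 8 genes summed to 111 to 184, 269 to 286 and 585 to 804 CPM. The part of these shifts in the results below was not tested.

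Per transcript length, Erbb2 was the leading gene of the family in every group and Erbb4 and Epgn were close to absent. Levels of different genes are compared on the deposited FPKM scale (fragments per kilobase of transcript, scaled by library). In untreated cells the order was Erbb2 at 51.1 ± 8.55 FPKM (SD, n = 3), Erbb3 at 39.5 ± 6.88 FPKM, Tgfa at 32.4 ± 7.76 FPKM and Hbegf at 30.3 ± 2.91 FPKM, and the ranges over libraries of these neighbours overlapped. Egfr at 12.9 ± 2.79 FPKM and Areg at 11.0 ± 4.56 FPKM formed the next pair, whose ranges also overlapped. Btc followed at 3.22 ± 0.498 FPKM and Ereg at 1.58 ± 0.155 FPKM, each with a range apart from its neighbours. Erbb4 was at 0.0487 ± 0.0477 FPKM and Epgn at 0.0268 ± 0.0464 FPKM, again with overlapping ranges. In Rspo1-negative cells Tgfa (17.5 ± 3.25 FPKM) stood below Hbegf (26.4 ± 4.00 FPKM) with no overlap, and Egfr (6.86 ± 1.31 FPKM) stood below Areg (10.6 ± 2.45 FPKM). In Rspo1-positive cells the ranges of Erbb2 (35.3 ± 3.93 FPKM) and Erbb3 (29.0 ± 4.09 FPKM) overlapped, as did those of Hbegf and Tgfa (28.7 ± 6.06 and 21.1 ± 5.83 FPKM).

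**Figure D1:**
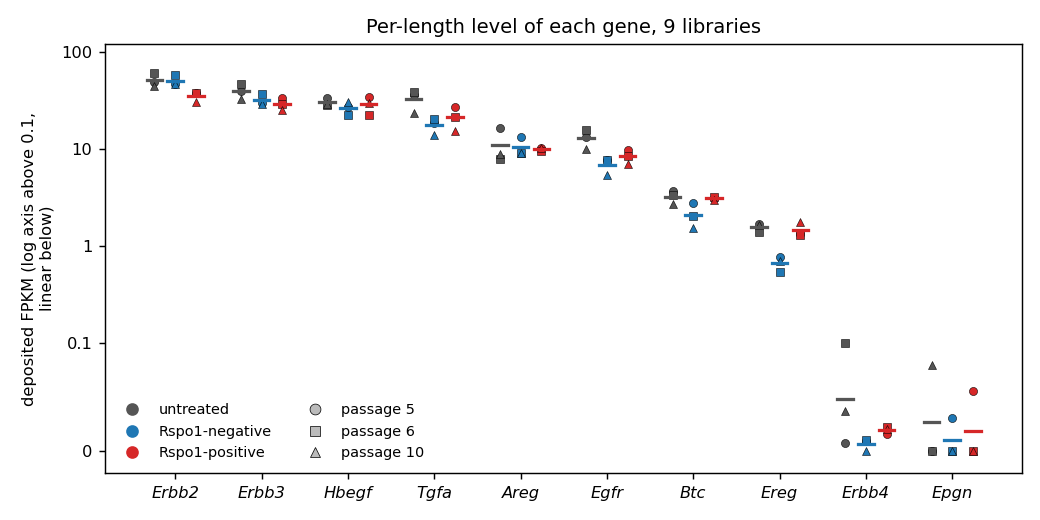
Deposited FPKM of the 10 genes (vertical axis, logarithmic above 0.1 and linear below) in 9 libraries; colours stand for groups, symbols for passages and short lines for group means. Erbb2 has the highest mean in each group (51.1, 50.2 and 35.3 FPKM in untreated, Rspo1-negative and Rspo1-positive cells), and Erbb4 and Epgn lie near 0.

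Among the receptors, Egfr fell in Rspo1-negative cells, Erbb2 had its lowest values in Rspo1-positive cells, Erbb3 passed no group test in the fit on groups alone and Erbb4 was barely expressed. A gene is said to differ when its adjusted p-value by edgeR's quasi-likelihood test over all 17011 genes tested was under 0.05. In bulk RNA of sorted cells, fewer cells expressing a gene and less RNA of it per cell cannot be told apart.

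Egfr (ENSMUSG00000020122, chromosome 11, 16752203 to 16918158, plus strand, GRCm38) encodes the receptor of EGF itself. It was at 137, 161 and 103 CPM in the untreated libraries of passages 5, 6 and 10, at 75.3, 77.8 and 54.8 CPM in the Rspo1-negative libraries and at 101, 86.4 and 72.8 CPM in the Rspo1-positive libraries. Every untreated library lay above every Rspo1 library, and the 2 Rspo1 gates overlapped. Egfr was 1.92-fold lower in Rspo1-negative than in untreated cells (log2 fold change -0.94, SE 0.20, edgeR adjusted p = 0.00927). Without Rspo1-negative replicate 3 the adjusted p was 0.0528. An offset for GC content and transcript length, fitted in each library, took this difference to -0.14 (adjusted p = 0.698), and with the passage block to -0.12 (adjusted p = 0.521). In Rspo1-positive against untreated cells the log2 fold change was -0.62 (SE 0.20, adjusted p = 0.112), which was -0.61 with an adjusted p of 0.00612 when passage was a block and -0.69 (0.00427) with block and offset, so this difference passed the test only in part of the fits. It also passed without untreated replicate 3 (-0.78, adjusted p = 0.0415) and without the filter on low counts (-0.60, adjusted p = 0.0361). Between the Rspo1 gates the sign itself turned: 0.32 (SE 0.20, adjusted p = 0.264) without correction, 0.33 (adjusted p = 0.0488) with the block, and -0.57 (adjusted p = 0.0119) with block and offset.

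Erbb2 (ENSMUSG00000062312, chromosome 11, 98412470 to 98437716, plus strand) encodes the ligandless partner of the other receptors. Its levels were 247, 309 and 225 CPM in untreated, 224, 288 and 237 CPM in Rspo1-negative and 188, 190 and 159 CPM in Rspo1-positive libraries. The 3 Rspo1-positive libraries were the 3 lowest of the 9. Against untreated cells the log2 fold change in Rspo1-positive cells was -0.54 (SE 0.16, edgeR adjusted p = 0.0922), which passed the threshold with the passage block (-0.53, adjusted p = 0.0167), with block and offset (-0.56, adjusted p = 0.00675) and with DESeq2 (adjusted p = 0.0437). Against Rspo1-negative cells it was -0.48 (SE 0.16, adjusted p = 0.0537). That value stayed between -0.57 and -0.38 over 13 alternatives, of which 6 called it, with an adjusted p of 0.0124 under the block and of 0.0189 with block and offset. Untreated and Rspo1-negative cells differed by -0.06 (SE 0.16, adjusted p = 0.822), and this sign flipped with upper-quartile scaling (0.02). The antisense gene Mien1 shares 0.17% of the exon bases of Erbb2.

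Erbb3 (ENSMUSG00000018166, chromosome 10, 128567523 to 128589652, minus strand), the neuregulin receptor with a weak kinase, was at 242, 283 and 199 CPM in untreated, 173, 220 and 175 CPM in Rspo1-negative and 201, 174 and 155 CPM in Rspo1-positive libraries. Values of the 3 groups overlapped. The log2 fold change of Rspo1-positive against untreated cells was -0.45 (SE 0.17, edgeR adjusted p = 0.192), and -0.49 (adjusted p = 0.0154) with block and offset. The Rspo1-negative value was -0.35 (SE 0.17, adjusted p = 0.168). Erbb4 (ENSMUSG00000062209, chromosome 1, 68032186 to 69108059, minus strand), the other ligand-binding receptor with an active kinase, had 3, 37 and 16 counts in untreated, 4, 3 and 0 counts in Rspo1-negative and 8, 8 and 9 counts in Rspo1-positive libraries, too few for the filter on low counts. The untreated library of passage 5 overlapped the Rspo1-negative ones and the other two did not. Without that filter edgeR placed Rspo1-negative below untreated cells (-2.76 on the log2 scale, SE 0.79, adjusted p = 0.0124), as did DESeq2 (-2.88, adjusted p = 0.0242). Both values depend on few counts. The fits that left out a library kept the filter. Erbb4 passed it only where the untreated libraries with 37 and 16 counts were both kept, so not without untreated replicate 2 or 3. In the others edgeR called Erbb4 without untreated replicate 1. It did not call it without Rspo1-negative replicate 1 (adjusted p = 0.122), 2 (0.0909) or 3 (0.145). With DESeq2 included, 2 of 5 alternatives to the unfiltered fit called this difference.

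**Figure D2:**
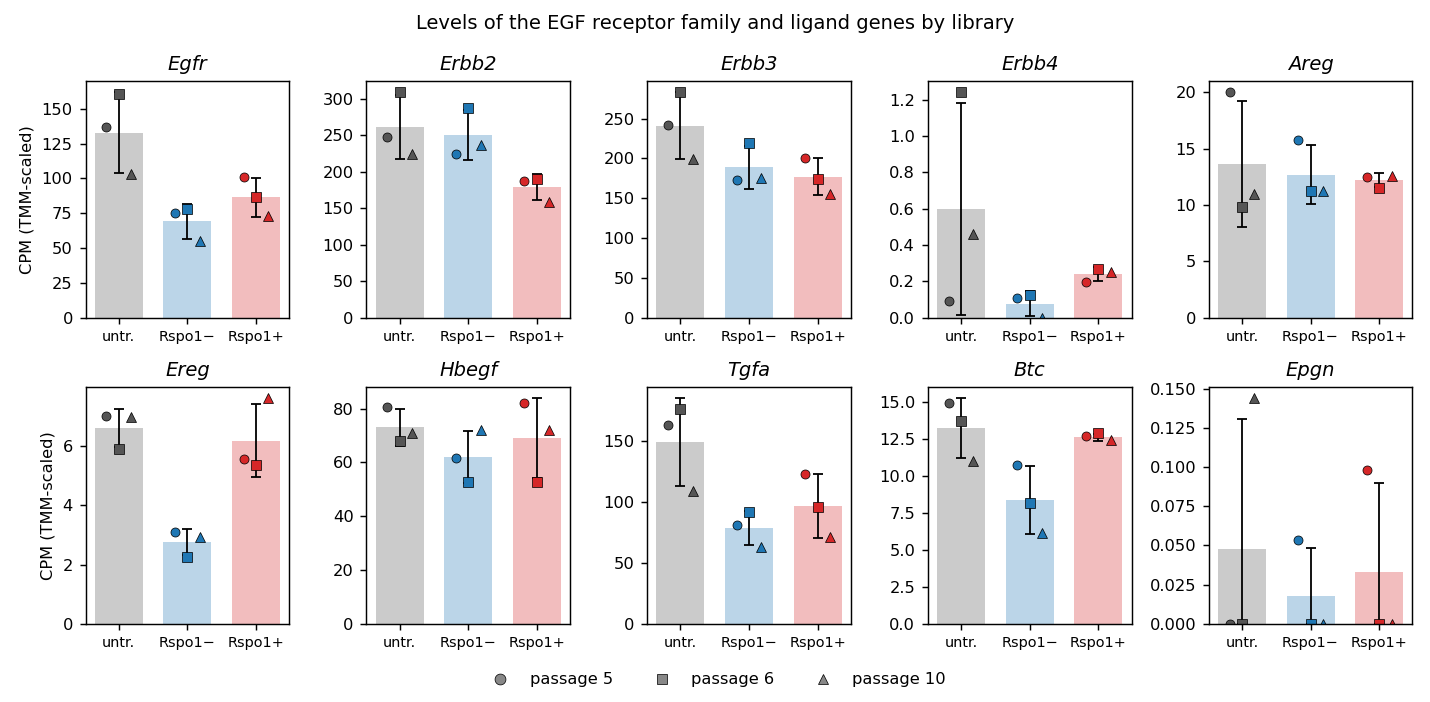
CPM (vertical axes, from 0, 1 panel a gene) in untreated (untr.), Rspo1-negative (Rspo1−) and Rspo1-positive (Rspo1+) libraries; bars are means, lines are SD over 3 libraries (cut at 0) and symbols are libraries by passage. Egfr and Tgfa are highest in the untreated group, Ereg is lowest in the Rspo1-negative group (2.26 to 3.11 CPM), and Erbb2 is lowest in the Rspo1-positive group (159 to 190 CPM).

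Among the ligands, Tgfa and Ereg fell in Rspo1-negative cells, Btc had its lowest values there, and Areg and Hbegf passed no group test in the fit on groups alone. Tgfa (ENSMUSG00000029999, chromosome 6, 86195223 to 86275719, plus strand) encodes transforming growth factor alpha, a ligand of Egfr. It was at 163, 176 and 109 CPM in untreated, 80.9, 91.4 and 63.2 CPM in Rspo1-negative and 123, 95.6 and 71.2 CPM in Rspo1-positive libraries. Untreated libraries lay above all Rspo1-negative ones, and the Rspo1-positive range overlapped both others. Tgfa was 1.90-fold lower in Rspo1-negative than in untreated cells (log2 fold change -0.92, SE 0.24, edgeR adjusted p = 0.0203). The offset left the value nearly the same (-0.92, adjusted p = 0.0400), as did block and offset together (-0.90, adjusted p = 0.000638). With 1 library left out the call was lost in 4 of 6 fits: the adjusted p was 0.0623 without untreated replicate 1, 0.0526 without untreated replicate 2, 0.0588 without Rspo1-negative replicate 1 and 0.0983 without Rspo1-negative replicate 3, with log2 fold changes of -0.76 to -1.11 over all 6 such fits. In Rspo1-positive against untreated cells it was -0.63 (SE 0.24, adjusted p = 0.187), or -0.63 (adjusted p = 0.00847) with the block and -0.68 (adjusted p = 0.00171) with block and offset. The 2 Rspo1 gates differed by 0.30 (SE 0.24, adjusted p = 0.385). Of the exon bases of Tgfa, 1.82% are shared with the antisense gene Gm43917, and whether the counting used strand is not given in the sources used here.

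Ereg (ENSMUSG00000029377, chromosome 5, 91074622 to 91093646, plus strand) encodes epiregulin, a low-affinity ligand of Egfr and Erbb4. Its levels were 7.02, 5.89 and 6.97 CPM in untreated, 3.11, 2.26 and 2.92 CPM in Rspo1-negative and 5.56, 5.36 and 7.61 CPM in Rspo1-positive libraries, from 55 to 272 counts. Each Rspo1-negative library was below every other library, while the other 2 groups overlapped. Ereg was 2.39-fold lower in Rspo1-negative than in untreated cells (log2 fold change -1.26, SE 0.23, edgeR adjusted p = 0.00474) and 2.23-fold higher in the Rspo1-positive gate than in the Rspo1-negative gate (1.16, SE 0.23, adjusted p = 0.00683), and both calls held in all 6 fits that left out a library. Rspo1-positive and untreated cells differed by -0.10 (SE 0.22, adjusted p = 0.894). With the offset the 2 called differences shrank to -0.59 (adjusted p = 0.132) and 0.45 (adjusted p = 0.228), and with block and offset to -0.59 (adjusted p = 0.0306) and 0.45 (adjusted p = 0.0758). The antisense gene Gm19610 shares 3.42% of its exon bases.

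Btc (ENSMUSG00000082361, chromosome 5, 91357261 to 91402994, minus strand) encodes betacellulin, which binds Egfr and Erbb4. It was at 14.9, 13.7 and 11.0 CPM in untreated, 10.7, 8.15 and 6.14 CPM in Rspo1-negative and 12.7, 12.9 and 12.4 CPM in Rspo1-positive libraries. The Rspo1-negative libraries were the 3 lowest, though the gap to the nearest untreated library was small (10.7 against 11.0 CPM). Against untreated cells the log2 fold change was -0.66 (SE 0.22, edgeR adjusted p = 0.0519), called with the block (-0.67, adjusted p = 0.00982), with DESeq2 (-0.62, adjusted p = 0.0377), without Rspo1-negative replicate 1 (-0.88, adjusted p = 0.0297) and without untreated replicate 3 (-0.78, adjusted p = 0.0474). Rspo1-positive exceeded Rspo1-negative levels by 0.59 (SE 0.22, adjusted p = 0.0676), or 0.63 (adjusted p = 0.0127) with the block. The offset turned both signs, to 0.05 and -0.10.

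Areg (ENSMUSG00000029378, chromosome 5, 91139599 to 91148432, plus strand) encodes amphiregulin, an Egfr ligand. It was at 20.0, 9.80 and 11.0 CPM in untreated, 15.8, 11.2 and 11.2 CPM in Rspo1-negative and 12.5, 11.5 and 12.6 CPM in Rspo1-positive libraries, with all groups overlapping. The passage 5 library was the highest of the untreated and of the Rspo1-negative group. Its log2 fold changes were -0.10 (SE 0.27), -0.16 (SE 0.27) and -0.06 (SE 0.27) for Rspo1-negative against untreated, Rspo1-positive against untreated and Rspo1-positive against Rspo1-negative cells, with adjusted p-values by edgeR of 0.824, 0.854 and 0.900. Hbegf (ENSMUSG00000024486, chromosome 18, 36504927 to 36515805, minus strand) encodes the heparin-binding ligand. It was at 80.8, 67.8 and 70.8 CPM in untreated, 61.6, 52.7 and 71.9 CPM in Rspo1-negative and 82.1, 52.9 and 72.1 CPM in Rspo1-positive libraries. The lowest value of each group was that of passage 6. For the same 3 comparisons Hbegf gave -0.24, -0.08 and 0.15 (SE 0.18 each, adjusted p-values of 0.369, 0.888 and 0.561 by edgeR), and the first was -0.46 (adjusted p = 0.0160) with block and offset. Epgn (ENSMUSG00000035020, chromosome 5, 91027464 to 91035215, plus strand), which encodes epigen, had 0, 0 and 5 counts in untreated, 2, 0 and 0 in Rspo1-negative and 4, 0 and 0 in Rspo1-positive libraries. At this depth no difference in it was detectable. A library with a count of 0 allows up to 3 counts of its total, for counting error only.

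Epgn, Ereg, Areg and Btc lie in that order within 376 kb of chromosome 5 (91027464 to 91402994). Per length the untreated means of the 4 ran from 0.0268 FPKM for Epgn to 11.0 FPKM for Areg, and of the 3 that were tested Ereg was called in 2 group comparisons and Areg and Btc in none, while the passage block called Btc in the same 2 as Ereg. Whether their differences were unequal was not tested.

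Counted over the family, 8 of the 10 genes passed the filter on low counts. In Rspo1-negative against untreated cells 3 of the 8 were called, all lower (Egfr, Ereg and Tgfa), where 21.9% of all genes were called and 13.9% were called lower. All 8 had values below 0, with a median log2 fold change of -0.50 against -0.02 over all genes, and with the offset 7 did, with a median of -0.22 against -0.03 (-0.19 with block and offset). In 4 of the 8 (Egfr, Ereg, Tgfa and Btc) the groups did not overlap, all lower, against 20.0% of all genes that did not overlap and were lower. With the passage block 4 were called, all lower (Btc in addition), where 35.5% of all genes were called and 20.0% lower. With the offset 1 was called (Tgfa, lower), where 8.82% of all genes were called and 4.65% lower. With both, 3 were called, all lower (Tgfa, Ereg and Hbegf), where 22.5% of all genes were called and 12.0% lower. Of all genes called in this comparison, 36.5% were higher, a share that became 49.5% with upper-quartile scaling and 47.3% with the offset.

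In Rspo1-positive against untreated cells 0 of the 8 were called by edgeR, where 5.21% of all genes were. Values again lay below 0 in all 8, with a median of -0.30 against -0.01 over all genes, and unadjusted p-values were under 0.05 for Egfr, Erbb2, Erbb3 and Tgfa. The groups did not overlap in 2 of the 8 (Egfr and Erbb2, both lower), against 11.8% of all genes that did not overlap and were lower. The block called 3 (Egfr, Erbb2 and Tgfa, all lower), where 13.2% of all genes were called and 6.77% lower. Block and offset called 4, all lower (Erbb3 in addition), where 17.4% of all genes were called and 10.4% lower. The offset alone called 0 by edgeR (background 6.71%), with 4 at an unadjusted p under 0.05, and DESeq2 called Erbb2.

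Between the Rspo1 gates 1 of the 8 was called, Ereg, which was higher in Rspo1-positive cells, where 24.3% of all genes were called and 14.6% were higher. The groups did not overlap in 3 of the 8 (Erbb2, Ereg and Btc), against 45.2% of all genes in either direction. The block called 4 (Egfr, Ereg and Btc higher, Erbb2 lower, background 38.9%). The offset called 0 (background 8.56%), with Egfr and Erbb2 at an unadjusted p under 0.05, while DESeq2 without it called Ereg and Erbb2. Block and offset together called 2 (Egfr and Erbb2, both lower), where 24.2% of all genes were called and 12.9% lower. Of all genes called between the gates, 59.8% were higher in Rspo1-positive cells, and 45.3% with the offset. These 3 comparisons share their groups, so their counts are not independent of each other.

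**Figure D3:**
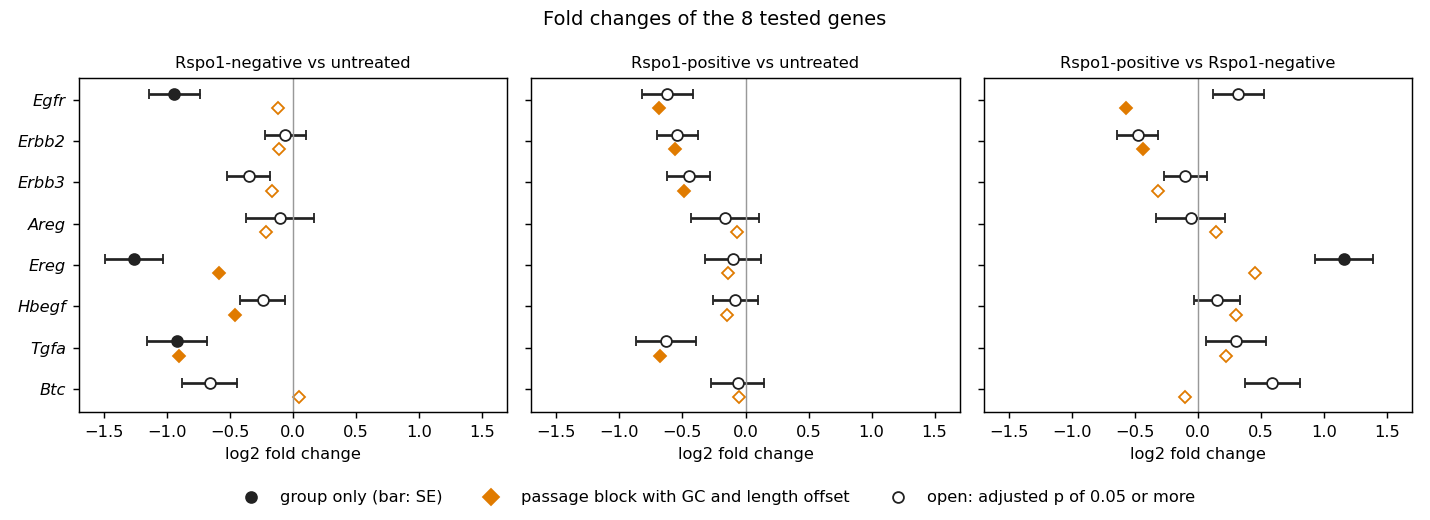
Log2 fold changes (horizontal axis) of the 8 tested genes in the 3 group comparisons; black circles with SE bars are from the fit on groups alone, orange diamonds from the fit with passage block and GC and length offset, and open symbols did not pass an adjusted p of 0.05. Tgfa keeps its value in Rspo1-negative against untreated cells (-0.92 and -0.90), while Egfr goes from -0.94 to -0.12.

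The fold changes of the Rspo1-negative group moved with the GC content of the transcripts. Over all genes the Spearman correlation of GC content with the log2 fold change was 0.496 in Rspo1-negative against untreated cells, -0.504 between the Rspo1 gates and -0.0134 in Rspo1-positive against untreated cells. In Rspo1-negative against untreated cells the median log2 fold change was -0.65 in the fifth of genes with the lowest GC content (23.0 to 44.0%) and 0.26 in the fifth with the highest (55.6 to 83.1%). The 3 tested family members whose values in that comparison moved most under the offset are poor in GC: Btc with 37.7%, Ereg with 39.2% and Egfr with 44.4% lie at percentiles 2.01, 4.22 and 21.7 of the tested genes. Tgfa with 50.9% (percentile 55.2) and Erbb2 with 57.3% (percentile 87.4) were at -0.92 and -0.13 with the offset, against -0.92 and -0.06 without it.

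Within each passage the called differences had the same direction. This follows from groups whose libraries did not overlap, so it adds no separate evidence and shows only the sizes. Egfr was lower in the Rspo1-negative than in the untreated library of the same passage by log2 differences of -0.86, -1.05 and -0.91 at passages 5, 6 and 10. For Tgfa these were -1.01, -0.94 and -0.78, and for Ereg -1.16, -1.36 and -1.24. Between the Rspo1 gates Ereg was higher in the Rspo1-positive library by 0.82, 1.22 and 1.36. Erbb2 in Rspo1-positive against untreated libraries gave -0.39, -0.70 and -0.50, and Egfr -0.44, -0.89 and -0.50. Ereg in the same comparison had mixed signs (-0.33, -0.13 and 0.13).

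**Figure D4:**
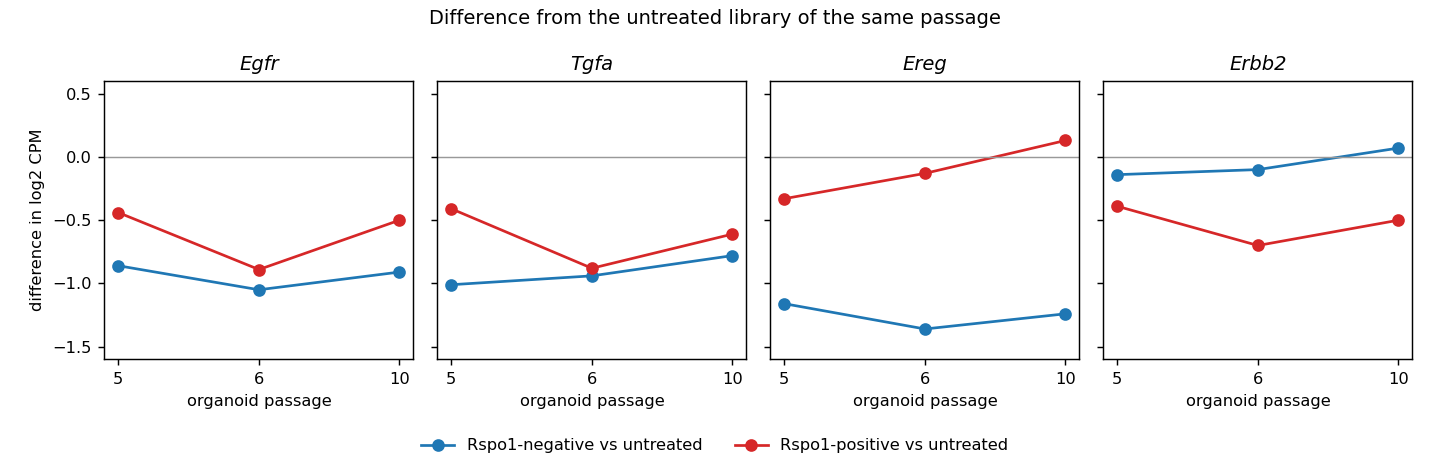
Difference in log2 CPM (vertical axis) of each Rspo1 library from the untreated library of its passage (horizontal axis) for 4 genes; each point is 1 pair of libraries, without error. Ereg lies between -1.36 and -1.16 in the Rspo1-negative gate and between -0.33 and 0.13 in the Rspo1-positive gate.

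Across passages, Egfr, Tgfa and Btc had their lowest value of each group at passage 10. The fit that compared passages had group and passage as terms, and Egfr and Tgfa were called in it. Tgfa was lower at passage 10 than at passage 5 (log2 fold change -0.58, SE 0.13, edgeR adjusted p = 0.0212) and than at passage 6 (-0.55, SE 0.13, adjusted p = 0.0254). Egfr was lower by -0.44 (SE 0.12, adjusted p = 0.0421) and -0.47 (SE 0.12, adjusted p = 0.0355) on the log2 scale. No other member was called, so that 2 of the 8 were called in each of these comparisons, where 9.07% and 8.45% of all genes were. Unadjusted p-values of edgeR were also under 0.05 for Areg (-0.46) and Btc (-0.42) between passages 10 and 5. Between passages 10 and 6 this held for Erbb2 (-0.34), Erbb3 (-0.34) and Hbegf (0.32). With the offset Egfr was not called in either (adjusted p = 0.0545 and 0.0738), both calls of Tgfa were made (adjusted p = 0.00591 and 0.0114), and Erbb2 was called lower at passage 10 than at passage 6 (-0.41, adjusted p = 0.0423). Of the 17001 genes tested with the offset, 2155 were called between passages 10 and 5 and 2006 between passages 10 and 6. Between passages 6 and 5 none was called, where 2.49% of genes were. Unadjusted p-values of edgeR there were under 0.05 for Areg (-0.56, adjusted p = 0.151) and Hbegf (-0.37, adjusted p = 0.179), and DESeq2 called 0 of the 8. For Egfr the passage 10 to 5 call was lost without any 1 of the 6 libraries (adjusted p from 0.105 to 0.187), and the passage 10 to 6 call held in 2 of 6 such fits. Those of Tgfa held in 2 and 3 of 6, with adjusted p-values of up to 0.127 without Rspo1-positive replicate 1 and 0.119 without Rspo1-positive replicate 3. The animal is the same at every passage, and each passage has 3 libraries from 3 sorted populations.

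Genes with the most similar profile were looked up for the 3 members called between groups, by Pearson correlation of log2 CPM over the 9 libraries among 11661 well-expressed genes, as a description. Tgfa was nearest to its antisense neighbour Gm43917 (r = 0.993), with which it shares exon bases, followed by Egfr (r = 0.980). Egfr was nearest to Cers6, a ceramide synthase gene (r = 0.982), Tgfa and Tpp1, a lysosomal peptidase gene (r = 0.977). The receptor and its ligand were thus among each other's 3 nearest profiles. For Ereg these were Uso1, a vesicle tethering factor of the Golgi (r = 0.989), Mtm1, a phosphoinositide phosphatase (r = 0.987), and Ddx3x, an RNA helicase (r = 0.979). Mean levels of Ddx3x were 340 CPM in untreated, 155 CPM in Rspo1-negative and 313 CPM in Rspo1-positive cells, the order that Ereg also had. The 9 points share groups, passages and the GC gradient described above.

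Among the other EGF-like ligands and the genes of ligand shedding, the fit on groups alone called only Adam10. Of the 5 other ligand genes 3 were tested. In the fit on groups alone 0 were called in any group comparison by edgeR or DESeq2. Of all genes edgeR called 21.9% in Rspo1-negative and 5.21% in Rspo1-positive against untreated cells, and 24.3% between the gates. Nrg1 between the gates had an unadjusted p under 0.05 and was called by edgeR with the block (adjusted p = 0.0111). With block and offset edgeR called 1 ligand lower in Rspo1-positive than in untreated cells, and 1 lower than in Rspo1-negative cells. Nrg4, which encodes a neuregulin that binds Erbb4, was the only one above 10 CPM, at 32.6 ± 6.19 CPM (SD, n = 3) in untreated, 28.8 ± 2.82 CPM in Rspo1-negative and 26.2 ± 3.59 CPM in Rspo1-positive cells. Nrg1, a ligand of Erbb3 and Erbb4, was at 2.52 ± 0.997, 1.48 ± 0.829 and 3.59 ± 1.67 CPM (SD, n = 3), and Egf itself at 0.558 ± 0.366, 0.599 ± 0.301 and 0.953 ± 0.242 CPM (SD, n = 3). These 3 were picked for mention after their values were seen. Of the 6 shedding genes, Adam10, the protease that frees Btc and Egf, was at 139 ± 17.7 CPM (SD, n = 3) without Rspo1 and fell to 59.4 ± 12.5 CPM in the Rspo1-negative gate (log2 fold change -1.23, SE 0.17, edgeR adjusted p = 0.00166; -0.67, adjusted p = 0.0180 with the offset). It was at 113 ± 11.1 CPM in the Rspo1-positive gate, above the Rspo1-negative gate by 0.92 (SE 0.17, edgeR adjusted p = 0.00574). That difference was 0.30 (adjusted p = 0.185) with the offset and 0.31 (adjusted p = 0.0352) with block and offset. No other shedding gene was called in the fit on groups alone. Thus 1 of the 6 was called in each of these comparisons, where 21.9% and 24.3% of all genes were. The list's median of -0.06 in Rspo1-negative against untreated cells lay near that of all genes. With the block 2 were called lower there and 2 higher between the gates, where 35.5% and 38.9% of all genes were called. With block and offset 1 was called lower in each Rspo1 gate than in untreated cells, and 2 higher between the gates. Of all genes block and offset called 22.5% and 17.4% in Rspo1-negative and Rspo1-positive against untreated cells, and 24.2% between the gates.

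Of the 16 genes that inhibit or turn over the receptors, 1 rose and 7 fell in Rspo1-negative against untreated cells, where 21.9% of all genes were called and 13.9% were lower, and the list's median on the log2 scale was -0.31. Lrig1, a membrane protein that restrains ERBB receptors, rose in both gates, from 77.1 ± 8.32 CPM without Rspo1 to 164 ± 36.8 and 140 ± 16.8 CPM in Rspo1-negative and Rspo1-positive cells (SD, n = 3 each). Its log2 fold changes against untreated cells were 1.09 (SE 0.18, edgeR adjusted p = 0.00309) and 0.86 (SE 0.18, adjusted p = 0.0192), and with block and offset 1.03 (adjusted p = 0.00116) and 0.83 (adjusted p = 0.00242). The first was called in 6 of 6 fits that left out a library and the second in 2 of 6, with adjusted p-values of up to 0.0868 without Rspo1-positive replicate 2. Cd2ap, an adaptor in receptor uptake, fell in Rspo1-negative cells (log2 fold change -1.76, SE 0.20, adjusted p = 0.000993; -0.86, adjusted p = 0.0129 with the offset). Socs4, a ubiquitin ligase adaptor (-1.32), and Eps15, an endocytic adaptor (-0.72), were called as well, but were at -0.30 (adjusted p = 0.260) and -0.02 (adjusted p = 0.941) with the offset. Under the offset 2 of the list rose and 1 fell, with or without the block. Of all genes 8.82% were called with the offset and 22.5% with block and offset. In Rspo1-positive against Rspo1-negative cells 6 rose and 1 fell (Cblc, a ubiquitin ligase, -0.61, adjusted p = 0.00489), where 24.3% of all genes were called and 14.6% were higher. With the offset 1 rose and 1 fell (background 8.56%), as many as with block and offset (background 24.2%). In Rspo1-positive against untreated cells Lrig1 alone was called (background 5.21%), and with the block 2 rose (background 13.2%). With block and offset 2 rose and 3 fell there (background 17.4%).

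Of the 28 signal transducers downstream of the receptors, 1 rose and 9 fell in Rspo1-negative against untreated cells, where 21.9% of all genes were called and 13.9% were lower, with a median of -0.12. Among those with the smallest adjusted p were Sos1, an activator of Ras proteins (log2 fold change -1.40, SE 0.18, edgeR adjusted p = 0.00135), and Pik3r3, a PI3-kinase subunit (-1.01, SE 0.15, adjusted p = 0.00216). With the offset these were -0.45 (adjusted p = 0.0435) and -0.50 (adjusted p = 0.0459), and 3 of the list fell and 0 rose. With block and offset 8 fell and 1 rose. Of all genes 8.82% were called with the offset and 22.5% with block and offset, 4.65% and 12.0% lower. In the fit on groups alone the gene that rose was Akt2, a kinase of the PI3-kinase route (0.43, adjusted p = 0.0322), whose call held in 2 of 6 fits that left out a library and was lost with the offset (0.34, adjusted p = 0.146) and with block and offset (adjusted p = 0.0905). Between the Rspo1 gates 9 were higher and 6 lower in Rspo1-positive cells, where 24.3% of all genes were called and 14.6% were higher. Sos1 (1.36) and Braf (1.61, SE 0.25, adjusted p = 0.00258), a kinase that Ras proteins activate, were among those that rose with the smallest adjusted p. The ERK kinase Mapk3 (-0.67, SE 0.16, adjusted p = 0.0141, 4 of 6 fits without a library) and its activator Map2k2 (-0.58, SE 0.13, adjusted p = 0.00971) fell. With the offset 0 of the list rose and 1 fell (background 8.56%). With the block 10 rose and 7 fell (background 38.9%), and with block and offset 3 rose and 4 fell (background 24.2%). In Rspo1-positive against untreated cells 0 of 28 were called by edgeR (background 5.21%), with a median of -0.12 and 3 at an unadjusted p under 0.05. DESeq2 called 2, and the block 2, both lower (background 13.2%). With the offset 2 fell (background 6.71%), and with block and offset 4 fell (background 17.4%), while 0 rose in either. In the block fit of Rspo1-negative against untreated cells 5 rose and 10 fell, where 35.5% of all genes were called and 20.0% lower.

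Genes that ERK activity induces, which serve as a readout of the route, were called in 2 to 4 of 16 members in the fit on groups alone. With block and offset 7 of 16 were called in each comparison, where 17.4% to 24.2% of all genes were. Most of these 7 were lower in Rspo1-negative against untreated cells, and most were higher in the other comparisons. Etv4 had the largest fold change of those called against untreated cells, in both gates. Etv4, an ETS transcription factor, was at 13.0 ± 3.09 CPM without Rspo1 and rose to 51.6 ± 5.87 and 50.4 ± 6.58 CPM in Rspo1-negative and Rspo1-positive cells (SD, n = 3 each). Its log2 fold changes of 1.98 (SE 0.19, edgeR adjusted p = 0.000993) and 1.95 (SE 0.19, adjusted p = 0.000687) were called in each of 13 alternatives, and with block and offset they were 1.63 and 1.94. Etv5, a close relative, rose by 0.66 (adjusted p = 0.0496) and 0.96 (adjusted p = 0.0282), called in 1 and 2 of the 6 fits that left out a library. Spred1, an inhibitor of Ras-ERK signalling, fell in Rspo1-negative cells by -0.83 (SE 0.18, adjusted p = 0.0109, 5 of 6 fits without a library), and was at -0.04 (adjusted p = 0.905) with the offset. Counted over the 16 genes, 3 rose and 1 fell in Rspo1-negative against untreated cells, 2 rose in Rspo1-positive against untreated cells and 2 rose between the gates, where 21.9%, 5.21% and 24.3% of all genes were called. With the block 5 rose and 2 fell, 6 rose, and 3 rose, in that order, where 35.5%, 13.2% and 38.9% of all genes were called. With block and offset 2 rose and 5 fell, 6 rose and 1 fell, and 7 rose, where 22.5%, 17.4% and 24.2% were called. The same 16 genes include targets that other growth factor receptors feed.

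**Figure D5:**
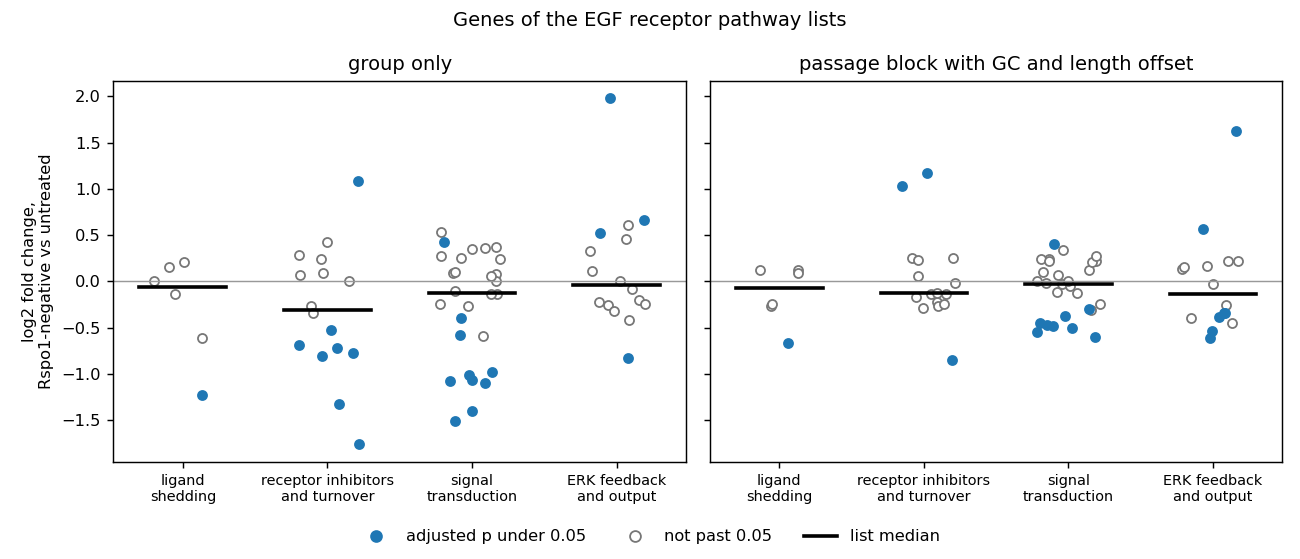
Log2 fold changes of Rspo1-negative against untreated cells (vertical axis) for each tested gene of 4 lists, from the fit on groups alone (left) and with passage block and GC and length offset (right); filled points passed an adjusted p of 0.05 and lines are list medians. The receptor inhibitor and turnover list has a median of -0.31 on the left and -0.13 on the right, and Etv4 is the highest point in both panels (1.98 and 1.63).

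Most proliferation genes rose in Rspo1-positive cells, and fewer were called in Rspo1-negative cells. Mki67, a marker of cycling cells, was at 18.8 ± 7.99 CPM without Rspo1 and at 24.7 ± 13.7 and 220 ± 67.3 CPM in Rspo1-negative and Rspo1-positive cells (SD, n = 3 each), and its Rspo1-negative value was not called against untreated cells (log2 fold change 0.39, edgeR adjusted p = 0.549) unless block and offset were used (adjusted p = 0.000850). Of the 8 proliferation genes 7 rose in Rspo1-positive and 4 in Rspo1-negative against untreated cells, and 3 rose between the gates, where 5.21%, 21.9% and 24.3% of all genes were called. With the block 8, 7 and 6 rose, where 13.2%, 35.5% and 38.9% were called. Of the 12 dissociation genes 1 rose and 1 fell in Rspo1-positive against untreated cells, where 5.21% of all genes were called. Between the gates 4 rose, led by Fosb (log2 fold change 3.39, SE 0.86, edgeR adjusted p = 0.0180, 3 of 6 fits without a library), where 24.3% of all genes were called. The block made these 8 and 2, and 6 and 1, where 13.2% and 38.9% were called. In Rspo1-negative against untreated cells 0 of the 12 dissociation genes were called by edgeR, where 21.9% of all genes were. An unadjusted p under 0.05 was found for 2, and DESeq2 called 1. The block called 1 in each direction, the offset 1 lower, and block and offset 3 lower. Of all genes these fits called 35.5%, 8.82% and 22.5%.

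The authors' deposited table of each comparison lists 8 of the family, without Erbb4 and Epgn. In the authors' deposited table of Rspo1-negative against untreated cells Egfr (-0.92), Ereg (-1.25), Tgfa (-0.90) and Btc (-0.67) have adjusted p-values under 0.05. The authors' deposited table of Rspo1-positive against untreated cells gives such values for Egfr (-0.61), Erbb2 (-0.53), Erbb3 (-0.44) and Tgfa (-0.62). Between the gates the authors' deposited table gives them for Ereg (1.13), Btc (0.60), Egfr (0.30) and Erbb2 (-0.50). Of these 12 calls, 11 were also made by the fit with the passage block, Erbb3 being the other. The share of all listed genes with such adjusted p-values in the deposited tables was not counted. The block fit called 35.5%, 13.2% and 38.9% of all genes in these comparisons, in that order.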

How the data were processed

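Per the labels' protocols, 100 ng RNA of each sorted sample was sequenced single-end to 75 bp. The deposited files hold raw counts and FPKM per gene, per the file headers. The submitters' processing notes name Trimmomatic 0.35, FastQC 0.11.2, STAR 2.5.1b, featureCounts and DESeq2 and the build GRCm38. The strand setting and the FPKM scaling are not given in the sources used here. The authors' deposited tables give log2 fold changes and adjusted p-values for 15807 genes, and their design formula is not given in the sources used here. FPKM was used for levels only.

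Counts were analysed with edgeR 4.0.16 in R 4.3.3: filterByExpr (minimum count 10, minimum total 15; 17011 genes kept), TMM, the quasi-likelihood F-test on group in 1 fit of 9 libraries, and Benjamini-Hochberg adjustment over all genes tested with a threshold of 0.05. The SE of a log2 fold change is its size over the square root of F. Passages were compared with group and passage as terms. A script of the fits was tested on simulated data.

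Replicate numbers stand for passages, per the labels. After removal of group means, libraries of the same passage correlated at 0.123 to 0.573 (9 pairs) and of different passages at -0.476 to 0.0826 (18 pairs), so passage pairs the libraries and entered a second fit as a block. GC content and length came from the longest GENCODE M21 transcript, for 99.9% of tested genes, with spline offsets (5 degrees of freedom) per library. Other alternatives were DESeq2 1.42.0, upper-quartile scaling, no filter on low counts, the 6 libraries compared alone and leaving out each library. The chi-square per gene between replicates was 57.5 to 528, so none repeated another library.

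The members and gene lists were chosen with earlier results of these data known. Named genes are the 10 members, Axin2, up to 3 called risers and 3 called fallers of each list and comparison by smallest adjusted p, and for each called member the 3 genes with the highest correlation (log2 CPM, prior count 2, mean above 2). The lists of other EGF-like ligands, ligand shedding, receptor inhibitors and turnover, signal transduction, ERK feedback and output, biliary, hepatocyte, mesenchymal, endothelial and immune markers, proliferation and dissociation response were written for this work. A few genes that the naming rule covers are not reported here.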

Additional observations from a re-analysis of the deposited data

How the results depend on the processing

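Over 13 alternatives of each group comparison, the calls of Ereg, Tgfa and Egfr in Rspo1-negative against untreated cells were made in 12, 9 and 10, and that of Ereg between the gates in 11. Over all alternatives of the members' group and passage values, 478 of 569 kept direction and side of the threshold, 32 were no longer past it, 27 came past it and 32 changed sign, and for the list genes and Axin2 these were 538, 117, 0 and 8 of 663. The causes were not tested. Counts were too low for a test in Erbb4 and Epgn, in 2 of the 5 other ligands, in 3 of the 7 hepatocyte markers and in all mesenchymal, endothelial and immune markers but 1, 0 and 2.

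The number of genes called between Rspo1-positive and untreated cells was 886, and 1446 without the filter, 2247 with the replicate block, 2966 with the replicate block plus offset, 1444 with DESeq2 and 390 to 899 with 1 library left out. Between the gates it was 4141, and 6624 with the replicate block, 1456 with the offset and 2061 to 4068 with 1 library left out. Between Rspo1-negative and untreated cells it was 3724, and 6039 with the replicate block, 1500 with the offset, 2299 in the 6 libraries compared and 1800 to 3772 with 1 library left out. Between passages 6 and 5 it was 423, and 1193 without the filter, 636 with the offset, 829 with DESeq2 and 105 to 846 with 1 library left out. Between passages 10 and 5 it was 1543, and 2784 without the filter and 405 to 702 with 1 library left out. Between passages 10 and 6 it was 1438, and 2456 without the filter and 548 to 1460 with 1 library left out.

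Signs turned between the gates with the offset and with block and offset for Egfr (-0.56 and -0.57), Areg (0.12 and 0.14), Btc (-0.10 and -0.10), Cldn7 (0.06 and 0.06), Eps15 (-0.05 and -0.05) and Spred1 (-0.06 and -0.06). In Rspo1-negative against untreated cells they turned for Btc with the offset and with both (0.05 and 0.05) and for Erbb2 with upper-quartile scaling (0.02). Egfr in passage 6 against 5 turned without the filter (-0.003) and with the offset (-0.03). With 1 library left out, Areg ranged from -0.28 to 0.29 and Erbb2 from -0.16 to 0.08 in Rspo1-negative against untreated cells. In Rspo1-positive against untreated cells Areg ranged from -0.34 to 0.23, Hbegf from -0.23 to 0.08 and Btc from -0.18 to 0.03. Between the gates Areg ranged from -0.19 to 0.13, Erbb3 from -0.20 to 0.01 and Axin2 from -0.11 to 0.53. In passage 6 against 5 Egfr ranged from -0.08 to 0.14 and Tgfa from -0.13 to 0.11, in passage 10 against 5 Ereg from -0.02 to 0.22 and Hbegf from -0.19 to 0.05, and in passage 10 against 6 Areg from -0.03 to 0.20.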
